A study of Mus musculus with 10 samples.

Results

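Chemokines are small secreted or membrane-bound proteins that guide the migration of leukocytes, and they act through G protein-coupled receptors carried by the responding cells. They are grouped by the spacing of their first cysteines into CC, CXC and CX3C families, and many ligands bind more than one receptor while many receptors take several ligands. Atypical receptors (Ackr genes) bind chemokines without G protein signalling and remove or transport them. In the kidney, tubule epithelium, endothelium, fibroblasts and resident macrophages are known sources of ligands, and most receptors are carried by leukocytes.

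The genes described here are 43 of the 30768 genes with a value, namely 25 chemokine ligands and 18 chemokine receptors. They were chosen by symbol, as chemokine system genes with a row that the array platform's annotation gives to that symbol, or its synonym, alone. All 43 had exactly 1 such row. No measured value entered the choice, but it was made with earlier results of these data known.

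RNA came from whole kidneys of 5-week-old mice, 5 with a tubule-specific Lkb1 knockout and 5 controls, each kidney hybridised to its own Affymetrix whole-transcript array. The knockouts carried a floxed Lkb1 allele and KspCre, a Cre recombinase driven by the promoter of the tubule cadherin Cdh16, so other kidney cells were not targeted. The controls were littermates with the floxed allele on 1 or both chromosomes (flox/+ or flox/flox) and no KspCre, so effects of the Cre transgene and of Lkb1 loss cannot be told apart. The titles name the first group a knockdown and the second wild type, the series design text speaks of MDCK cells (a dog kidney line), the strain label is C57Bl/6N although the floxed mice had a mixed background, and sex is not in the labels. The text follows the protocol. Stk11, which encodes Lkb1, measured 9.12, 9.21, 9.07, 9.21 and 9.31 in knockout kidneys 1 to 5 and 9.43, 9.40, 9.48, 9.46 and 9.40 in control kidneys 1 to 5. It was lower in all 5 knockouts, by -0.25 on the log2 scale (SE 0.05, limma adjusted p = 0.00765), in RNA that also holds untargeted cells.

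All values are log2 expression values of the deposited table, and each difference is knockout minus control. A gene passed the test when its adjusted p in limma, with Benjamini-Hochberg adjustment over all 30768 genes, was under 0.05. Over all genes, 1607 were higher in knockouts, a background of 5.22%, and 825 were lower, a background of 2.68%. The median difference over all genes was -0.03. The array's negative control probe sets had a median of 5.23, and a level below it cannot be read as expression above background. Where the control mean was below that median a fold is given as a lower bound, and where both means were below it none is given. In 4 of the 43 members a group mean exceeded 95% of the negative control sets, and the control means of Ccl9, Ccl6, Cxcl9 and Cxcl1 exceeded 63.4%, 62.4%, 59.8% and 63.9% of them. Folds of such members compare signals that include background, and its share was not tested.

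Several chemokine ligands of leukocytes were higher in Lkb1 knockout kidneys, with Ccl9, Ccl5 and Cxcl9 the largest differences, and 3 receptors rose with them. Of the 43 members, 14 rose (32.6%, against 5.22% of all genes), 1 fell (against 2.68%) and 28 did not pass. Among the 25 ligands, 11 rose and 1 fell, and their median difference was 0.28. Among the 18 receptors, 3 rose and none fell, and their median difference was -0.00. Differences were positive for 23 of 25 ligands and for 9 of 18 receptors, against 11696 of all 30768 genes. These are counts, and the difference between ligands and receptors was not tested.

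Signal level bears on that contrast. Both group means lay below the negative control median for 8 of 25 ligands and for 9 of 18 receptors. Among members with a mean over the 10 kidneys above that median, 11 of 17 ligands rose (64.7%) and 2 of 9 receptors rose (22.2%), against 7.63% of the 19881 genes above it. That mean includes the knockout kidneys, so a rise can itself bring a gene above the median. Cxcl10 met this filter only through its knockouts (mean 5.67, against 5.11 in controls). The 5 knockout values all lay above the 5 control values for 10 members, all of them ligands, against 5.00% of all genes. They all lay below for 2 members, both ligands, against 3.49% of all genes.

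**Figure D1:**
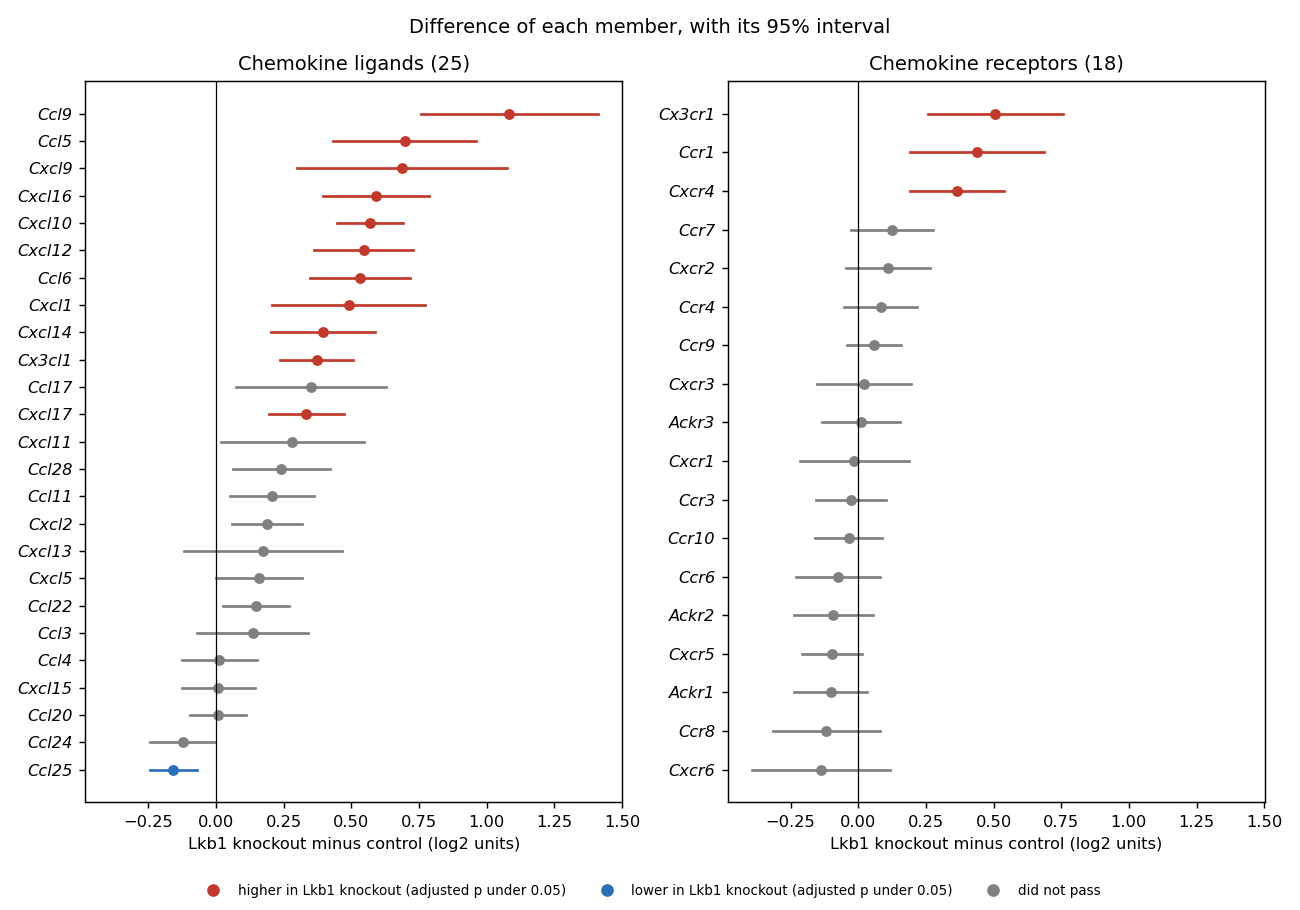
Difference between knockout and control kidneys (log2 units, x axis) for each of the 25 ligands (left) and 18 receptors (right), with its 95% interval from limma. Red points are the 11 ligands and 3 receptors that rose, blue is Ccl25, which fell, and the other 28 members are grey.

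The CC ligands Ccl9, Ccl6 and Ccl5 rose, and they were 3 of 12 CC ligands to do so. Ccl9, a mouse CC chemokine that binds Ccr1, measured 6.97, 6.91, 7.31, 6.77 and 6.21 in knockout kidneys 1 to 5, against 5.79, 5.73, 5.79, 5.66 and 5.79 in control kidneys 1 to 5. Every knockout lay above every control, knockout 3 was highest and knockout 5 lowest, and the controls spanned a narrow range. The difference was 1.08 (SE 0.15, limma adjusted p = 0.00131), 2.12-fold. Ccl9 had the largest difference of the 43 members.

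Ccl6, another rodent CC chemokine that signals through Ccr1, measured 6.34, 6.42, 6.36, 6.13 and 5.94 in knockout kidneys 1 to 5. Control kidneys 1 to 5 had Ccl6 values of 5.69, 5.73, 5.75, 5.57 and 5.78. The groups did not overlap, and knockout 5 was again the lowest of its group. Ccl6 was higher by 0.53 (SE 0.08, limma adjusted p = 0.00282), 1.45-fold.

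Ccl5, which attracts T cells and monocytes, measured 7.82, 7.46, 8.0, 7.37 and 7.33 in knockout kidneys 1 to 5. In control kidneys 1 to 5 Ccl5 measured 7.13, 6.81, 6.81, 6.91 and 6.83. Knockout 3 was highest, and control 1 was the highest control but stayed below the lowest knockout. The difference of Ccl5 was 0.70 (SE 0.12, limma adjusted p = 0.00477), 1.62-fold.

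Ccl25, which guides T cell precursors to the thymus and lymphocytes to the gut through Ccr9, was the only member that fell. It measured 7.06, 7.12, 7.01, 7.11 and 7.11 in knockout kidneys 1 to 5, against 7.28, 7.29, 7.19, 7.21 and 7.22 in control kidneys 1 to 5. The groups did not overlap, but the difference was small, -0.16 (SE 0.04, limma adjusted p = 0.0333). The call was lost when the arrays were centred on their medians (adjusted p = 0.106). It was lost as well when any single kidney other than control 3 or knockout 5 was left out, with adjusted p between 0.0543 and 0.0799.

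The other 8 CC ligands did not pass. Ccl28, an epithelial chemokine of mucosal tissues, measured 7.05, 6.88, 6.73, 6.70 and 6.84 in knockout kidneys 1 to 5, against 6.83, 6.67, 6.58, 6.47 and 6.45 in controls 1 to 5. The groups overlapped, since control 1 lay within the knockout range, and the difference of Ccl28 was 0.24 (SE 0.08, limma adjusted p = 0.0980). Ccl28 passed without control 1, with an adjusted p of 0.0431.

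Ccl17, a ligand of Ccr4 on T cells, measured 5.90, 5.82, 6.45, 5.93 and 5.54 in knockouts 1 to 5, against 5.50, 5.63, 5.53, 5.68 and 5.54 in controls 1 to 5. Knockout 3 stood above its group and knockout 5 lay among the controls. Ccl17 differed by 0.35 (SE 0.13, limma adjusted p = 0.117), and it passed without knockout 5, where the difference was 0.45 and the adjusted p 0.0229. Ccl22, the other Ccr4 ligand, differed by 0.15 (SE 0.06, limma adjusted p = 0.139).

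The eosinophil attractants Ccl11 and Ccl24, both ligands of Ccr3, had differences of opposite sign and neither passed. Ccl11 measured 6.21, 6.43, 6.18, 6.02 and 6.05 in knockouts 1 to 5, against 6.07, 5.96, 5.92, 5.91 and 6.00 in controls 1 to 5. Only control 1 reached into the knockout range, and the difference of Ccl11 was 0.21 (SE 0.07, limma adjusted p = 0.102). Ccl24 measured 5.50, 5.49, 5.35, 5.42 and 5.42 in knockouts 1 to 5, against 5.73, 5.52, 5.53, 5.51 and 5.51 in controls 1 to 5. Its knockout values all lay below its controls, with knockout 1 just under controls 4 and 5, and the difference was -0.12 (SE 0.05, limma adjusted p = 0.202). Ccl3, Ccl4 and Ccl20 differed by 0.14, 0.01 and 0.01, and both means of each were below the negative control median. The annotated intervals of Ccl3 and Ccl4 overlap, so their signals may not be fully separate.

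The CXC ligands Cxcl1, Cxcl9, Cxcl10, Cxcl12, Cxcl14, Cxcl16 and Cxcl17 rose. All 12 CXC ligands had a positive difference, against 11696 of all 30768 genes. The 7 that rose were all the CXC ligands with a mean over the 10 kidneys above the negative control median. Cxcl10 was above it only through its knockouts. Cxcl9 and Cxcl10 are induced by interferons and attract T and NK cells through Cxcr3. Cxcl10 measured 5.61, 5.63, 5.84, 5.56 and 5.74 in knockout kidneys 1 to 5, against 5.04, 5.10, 5.15, 5.11 and 5.12 in control kidneys 1 to 5. The groups lay well apart, with knockout 5 second highest of its group. Cxcl10 had a difference of 0.57 (SE 0.06) and the smallest limma adjusted p of the members, 2.05e-04. In controls its mean ranked above 47.5% of negative control sets, so its fold is given as at least 1.35.

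Cxcl9 measured 6.45, 6.47, 6.77, 5.95 and 5.79 in knockout kidneys 1 to 5, against 5.72, 5.94, 5.43, 5.66 and 5.24 in controls 1 to 5. Knockouts 1 to 3 stood clear of the controls and knockout 4 just exceeded control 2, the highest, while knockout 5 lay below it, so the groups overlapped. The difference was 0.69 (SE 0.18, limma adjusted p = 0.0348), 1.61-fold, and the two-sided exact permutation test gave p = 0.0159. Leaving out any single kidney other than control 2, knockout 4 or knockout 5 took the limma adjusted p above the threshold, to between 0.0585 and 0.0868. Cxcl11, the third Cxcr3 ligand, differed by 0.28 (SE 0.12, limma adjusted p = 0.186), with both means below the negative control median.

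Cxcl1, a neutrophil attractant that binds Cxcr2, measured 6.31, 6.04, 6.63, 5.99 and 6.29 in knockout kidneys 1 to 5. The Cxcl1 values of control kidneys 1 to 5 were 5.83, 5.37, 6.00, 5.85 and 5.77. Knockout 4 lay just below control 3, and the other 4 knockouts were above every control. The difference was 0.49 (SE 0.13, limma adjusted p = 0.0386), 1.40-fold, with an exact permutation p of 0.0159. The call was lost without any 1 of 7 kidneys (controls 1, 2, 4 and 5 and knockouts 1, 3 and 5), at adjusted p from 0.0529 to 0.0837.

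Cxcl2, the neighbour of Cxcl1 and a ligand of the same receptor, measured 4.94, 4.96, 4.81, 4.80 and 4.84 in knockouts 1 to 5, against 4.72, 4.50, 4.74, 4.79 and 4.65 in controls 1 to 5. The groups did not overlap, but both means were below the negative control median and the limma adjusted p was 0.0768 for a difference of 0.19 (SE 0.06). The further Cxcr2 ligand Cxcl5 differed by 0.16, and Cxcl15, a lung chemokine of mice, by 0.01. Neither passed.

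The promoter windows of Ccl9, Cxcl10, Cxcl1 and Cxcl2 are shown because they pair the largest difference and the smallest adjusted p among the members with neighbours that had different calls. Each is the 250 bases before the RefSeq gene start (GRCm38.p6, the mm10 assembly), 5′ to 3′ on the gene's own strand, and capitals mark matches to the searched motifs.
Ccl9 (chr11:83578637-83578886, minus strand): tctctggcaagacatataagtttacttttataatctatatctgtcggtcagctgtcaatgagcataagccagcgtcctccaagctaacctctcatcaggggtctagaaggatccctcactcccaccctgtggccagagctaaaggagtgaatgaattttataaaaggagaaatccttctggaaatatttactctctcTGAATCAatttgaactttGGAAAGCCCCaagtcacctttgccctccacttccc
Cxcl10 (chr5:92348890-92349139, minus strand): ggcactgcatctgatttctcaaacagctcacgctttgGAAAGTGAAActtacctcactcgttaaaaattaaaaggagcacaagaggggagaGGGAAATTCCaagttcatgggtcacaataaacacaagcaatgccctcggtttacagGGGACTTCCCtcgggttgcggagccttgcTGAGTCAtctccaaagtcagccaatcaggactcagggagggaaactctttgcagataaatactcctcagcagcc
Cxcl1 (chr5:90890995-90891244, plus strand): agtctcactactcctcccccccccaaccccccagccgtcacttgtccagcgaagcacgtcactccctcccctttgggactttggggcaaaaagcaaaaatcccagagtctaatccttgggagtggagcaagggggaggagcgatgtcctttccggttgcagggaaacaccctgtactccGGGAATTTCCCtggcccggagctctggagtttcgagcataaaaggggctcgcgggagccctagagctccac
Cxcl2 (chr5:90903649-90903898, plus strand): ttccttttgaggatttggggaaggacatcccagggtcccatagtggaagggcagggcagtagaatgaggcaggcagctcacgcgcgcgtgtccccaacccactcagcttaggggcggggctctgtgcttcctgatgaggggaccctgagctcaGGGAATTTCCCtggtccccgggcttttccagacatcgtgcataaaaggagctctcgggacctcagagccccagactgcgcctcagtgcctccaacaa

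The motifs were searched on both strands in windows of 300 bases, 250 before to 50 after the start. They were kappaB (the site of the NF-kappaB factors), the interferon-stimulated response element ISRE (GAAA, any pair of bases, GAAA) and AP1 (TGANTCA). RefSeq windows were found for 32 of the 43 members, 34 windows in all. In Cxcl10, kappaB matches began 159 and 103 bases before the start, the ISRE match 213 bases and the AP1 match 74 bases before it. In Ccl9, the AP1 match began 53 bases and the kappaB match 35 bases before the start. Cxcl1 and Cxcl2 each held the same run of letters, read as a pair of overlapping kappaB matches, although only Cxcl1 passed.

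A kappaB match was present in 3 of 11 windows of members that rose (27.3%), in 5 of 23 windows of the other members (21.7%) and in 1480 of 32851 windows in all (4.51%). ISRE matches were present in 2 of 11 windows, those of Cxcl10 and Cxcl14, in 0 of 23 and in 3.44% of all windows. AP1 matches were present in 3 of 11, in 3 of 23 and in 7.81% of all windows. The matches describe letters and are neither sites nor causes.

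Cxcl12 and Cxcl16 also rose. Cxcl12, which holds leukocytes and progenitors in tissues through Cxcr4 and is made by stromal cells, measured 8.63, 8.81, 8.64, 8.44 and 8.44 in knockout kidneys 1 to 5. In control kidneys 1 to 5 Cxcl12 measured 7.99, 8.10, 8.15, 8.18 and 7.81. The groups did not overlap, and knockouts 4 and 5 were lowest of theirs. The difference was 0.55 (SE 0.08, limma adjusted p = 0.00226), 1.46-fold.

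Cxcl16, a transmembrane chemokine that is also shed and that binds Cxcr6, measured 8.57, 8.47, 8.45, 8.13 and 8.20 in knockout kidneys 1 to 5, against 7.92, 7.57, 7.72, 7.81 and 7.83 in control kidneys 1 to 5. The groups did not overlap. Its difference was 0.59 (SE 0.09, limma adjusted p = 0.00210), 1.51-fold.

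Cxcl14, an epithelial and stromal chemokine made in many tissues without inflammation, measured 8.23, 8.54, 8.53, 8.07 and 8.26 in knockouts 1 to 5, against 7.74, 7.94, 8.02, 7.99 and 7.97 in controls 1 to 5. Control 1 stood below its group, and the lowest knockout lay just above the highest control. The difference was 0.39 (SE 0.09, limma adjusted p = 0.0172), 1.31-fold. Cxcl17, a mucosal chemokine, measured 6.69, 6.63, 6.79, 6.57 and 6.49 in knockouts 1 to 5, against 6.24, 6.27, 6.40, 6.20 and 6.40 in controls 1 to 5. The groups did not overlap, and Cxcl17 was higher by 0.33 (SE 0.06, limma adjusted p = 0.00753), 1.26-fold. Cxcl13, which attracts B cells through Cxcr5, differed by 0.18 (SE 0.13, limma adjusted p = 0.463).

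Cx3cl1, the only CX3C ligand, is a membrane-bound chemokine of epithelium and endothelium that also serves as an adhesion molecule. It measured 8.82, 8.93, 8.71, 8.63 and 8.63 in knockout kidneys 1 to 5, against 8.47, 8.40, 8.37, 8.35 and 8.27 in controls 1 to 5. All knockouts lay above all controls. The difference was 0.37 (SE 0.06, limma adjusted p = 0.00379), 1.29-fold.

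**Figure D2:**
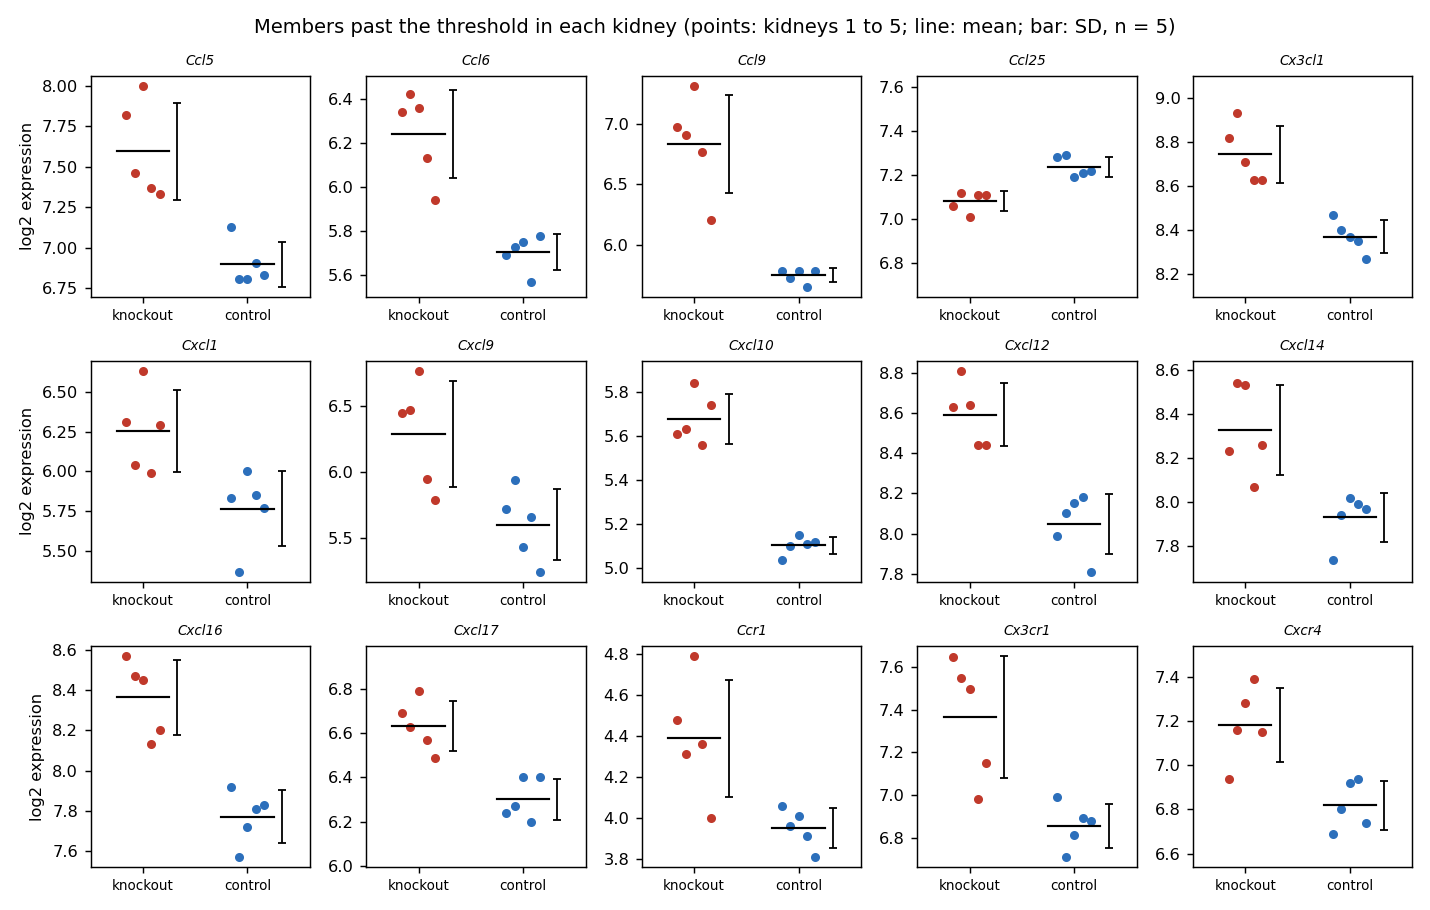
Log2 expression of the 15 members past the threshold in each kidney, knockout left of control, with the group mean (line) and SD (bar, n = 5). The y axes differ between panels and do not start at 0. The spread was wider among knockouts than among controls for all 14 members that rose, and the groups overlapped for Cxcl1, Cxcl9, Ccr1, Cx3cr1 and Cxcr4.

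Of the 18 receptors, Cx3cr1, Cxcr4 and Ccr1 rose, and the groups overlapped for each. Cx3cr1, the receptor of Cx3cl1, is carried by monocytes and by resident macrophages of the kidney. It measured 7.65, 7.55, 7.50, 6.98 and 7.15 in knockout kidneys 1 to 5, against 6.99, 6.71, 6.81, 6.89 and 6.88 in controls 1 to 5. Knockouts 1 to 3 stood clear of the controls, and knockout 4 fell just under control 1. The difference was 0.51 (SE 0.11, limma adjusted p = 0.0180), 1.42-fold. Without knockout 2 the adjusted p was 0.0520, and without knockout 3 it was 0.0509.

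Cxcr4, the receptor of Cxcl12, measured 6.94, 7.16, 7.28, 7.39 and 7.15 in knockout kidneys 1 to 5, against 6.69, 6.80, 6.92, 6.94 and 6.74 in control kidneys 1 to 5. Knockout 4 was the highest and knockout 1, the lowest, met control 4. Cxcr4 differed by 0.37 (SE 0.08, limma adjusted p = 0.0152), 1.29-fold.

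Ccr1, the shared receptor of Ccl5, Ccl6 and Ccl9 on monocytes and macrophages, measured 4.48, 4.31, 4.79, 4.36 and 4.00 in knockouts 1 to 5. In controls 1 to 5 Ccr1 measured 4.06, 3.96, 4.01, 3.91 and 3.81. Knockout 5 lay among the controls. The difference was 0.44 (SE 0.11, limma adjusted p = 0.0350, exact permutation p = 0.0238), but both means were below the negative control median, so no fold is given. The Ccr1 call was lost when any single kidney other than knockout 5 was left out, at adjusted p from 0.0535 to 0.0793.

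The other 15 receptors had differences from -0.14 to 0.13. Ackr3, an atypical receptor that takes up Cxcl12, measured 7.10, 7.20, 6.98, 7.21 and 7.40 in knockouts 1 to 5, against 7.14, 7.11, 7.17, 7.22 and 7.21 in controls 1 to 5. Its knockout values lay on both sides of the controls, and the difference was 0.01 with a 95% interval from -0.13 to 0.15.

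Ackr2, an atypical receptor that scavenges inflammatory CC chemokines, measured 6.61, 6.31, 6.53, 6.64 and 6.46 in knockouts 1 to 5, against 6.64, 6.50, 6.62, 6.52 and 6.73 in controls 1 to 5. The groups overlapped, with a difference of -0.09 (interval -0.24 to 0.06). Ccr7, which directs dendritic cells and T cells to lymph nodes, measured 6.56, 6.42, 6.51, 6.42 and 6.33 in knockouts 1 to 5, against 6.44, 6.20, 6.49, 6.27 and 6.21 in controls 1 to 5. Its groups overlapped as well, with a difference of 0.13 (interval -0.02 to 0.28).

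Cxcr3, Cxcr5, Cxcr2 and Cxcr6 were among the receptors that did not pass. Cxcr3, carried by effector T and NK cells, differed by 0.02 (interval -0.15 to 0.20), and the neutrophil receptor Cxcr2 by 0.11 (interval -0.04 to 0.26). Cxcr6, the receptor of Cxcl16, differed by -0.14 (interval -0.39 to 0.12), with both means below the negative control median. Over the 15 receptors the lowest interval bound was -0.39 and the highest 0.28, and a p that missed the threshold does not show that a receptor was alike in both groups.

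**Figure D3:**
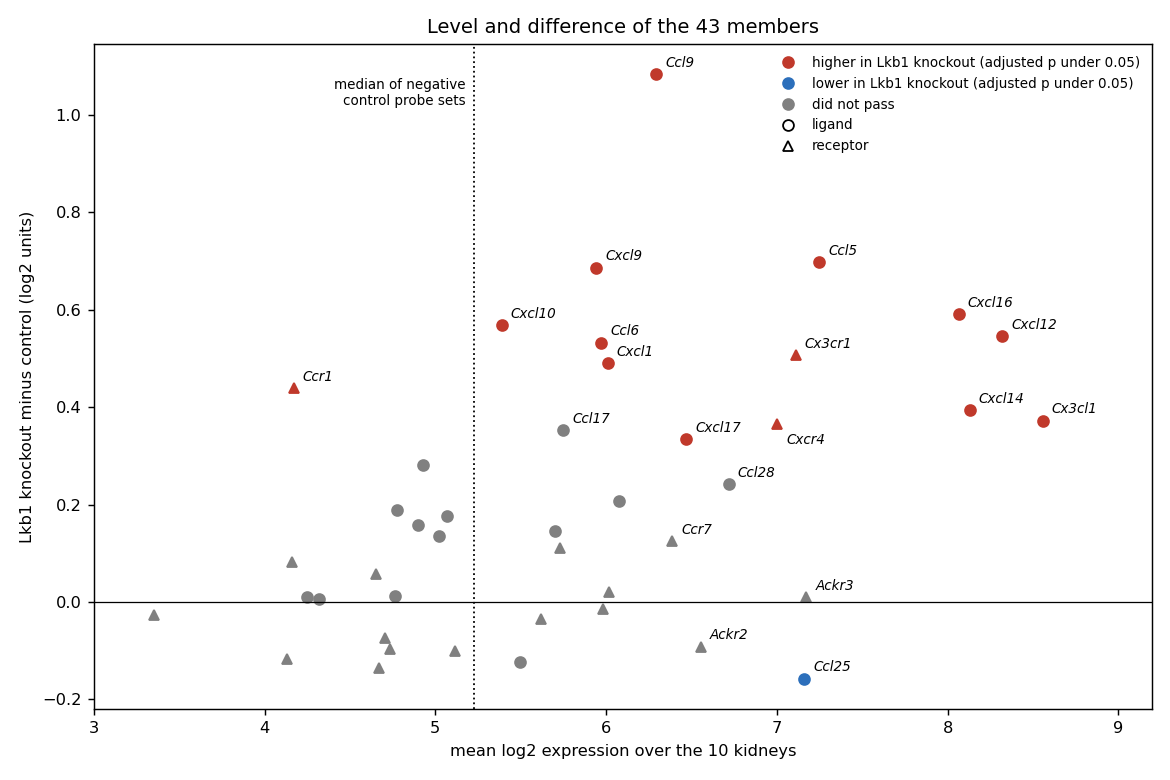
Difference between knockout and control kidneys (log2 units) against the mean log2 expression over the 10 kidneys for the 43 members, with circles for ligands and triangles for receptors. The dotted line is the negative control median (5.23). Of the 17 members with a mean to its left only Ccr1 passed, and signals of different genes are not on a shared scale.

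Ligands and receptors were set side by side in 25 textbook pairs among the members. In 5 pairs both sides rose: Cx3cl1 with Cx3cr1, Cxcl12 with Cxcr4, and Ccl5, Ccl6 and Ccl9 each with Ccr1, which is thus counted 3 times. Both means of Ccr1 were below the negative control median, and its call was lost in 9 of the 16 alternatives run for it. In 6 pairs only the ligand rose, among them Cxcl9 and Cxcl10 with Cxcr3, Cxcl16 with Cxcr6 and Cxcl1 with Cxcr2. Ccl3 with Ccr1 was the single pair in which only the receptor rose. In 1 pair, Ccl25 with Ccr9, the ligand fell, and Ccr9 differed by 0.06. In the other 12 pairs neither side passed.

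Many members lie in gene clusters, and neighbours differed in their calls. In the CC cluster on chromosome 11 from 83525778 to 83664683 (GRCm38.p6), the first 3 members in map order, Ccl5, Ccl9 and Ccl6, rose, and the next, Ccl3 and Ccl4, did not pass. On chromosome 5 from 92321331 to 92363296, Cxcl9 and Cxcl10 rose beside Cxcl11. On the same chromosome from 90759298 to 90905938, Cxcl1 rose beside Cxcl5, Cxcl15 and Cxcl2. On chromosome 8 from 94745684 to 94812038, Cx3cl1 rose between Ccl22 and Ccl17. On chromosome 9 from 123767211 to 124031692, Ccr1 rose beside Ccr9, Cxcr6 and Ccr3. Differences between neighbours were not tested.

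**Figure D4:**
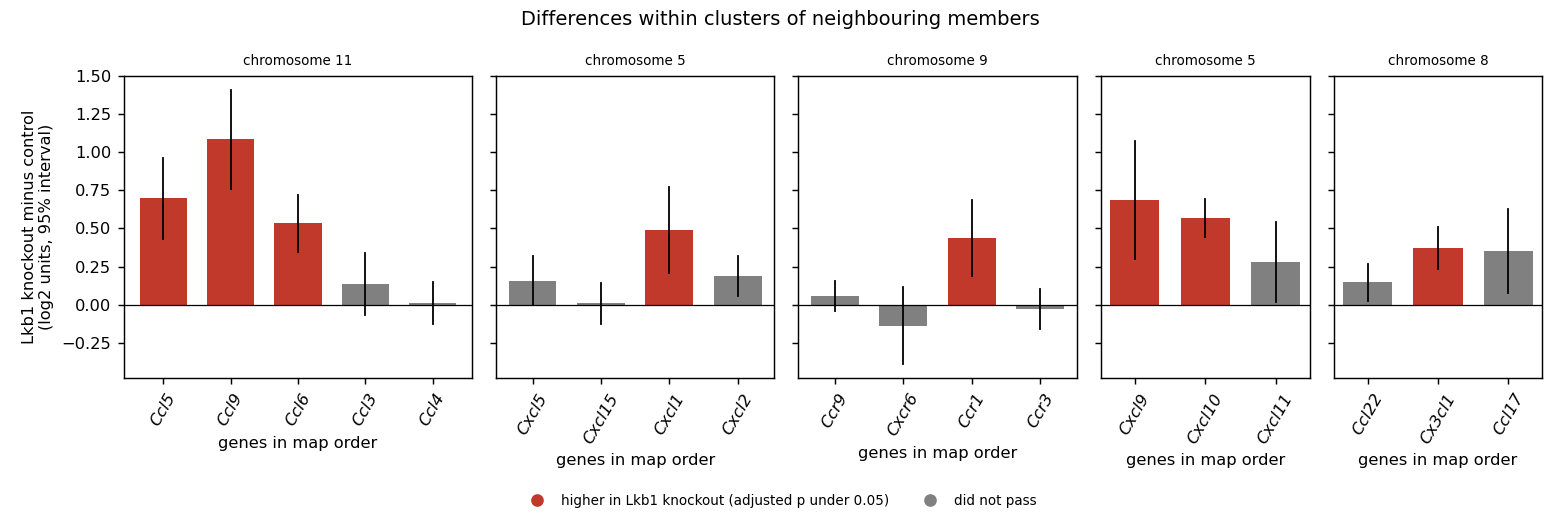
Difference between knockout and control kidneys (log2 units, bars from 0, with 95% intervals) for members in 5 gene clusters, in map order. In the chromosome 11 cluster Ccl5, Ccl9 and Ccl6 rose (0.70, 1.08 and 0.53), while Ccl3 and Ccl4 differed by 0.14 and 0.01.

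The rest of the chemokine pathway was read from gene lists that hold no member. Of 17 other chemokine system genes with a value, 4 rose (23.5%, against 5.22% of all genes) and none fell. These were Ccr2, the monocyte receptor of Ccl2 (difference 0.83, SE 0.13), Ccl12 (0.46), Ccl2 (0.37) and Ccl19 (0.21). Both means of Ccl12 were below the negative control median, and so was the control mean of Ccr2 (4.54). Of 26 genes of receptor signalling, 7 rose (26.9%) and none fell, led by the leukocyte genes Dock2 (0.64), Rac2 (0.53), Pik3cg (0.44) and Vav1 (0.43). Of 15 genes that present or cleave chemokines, 4 rose (26.7%) and none fell. They were the matrix protease Mmp2 (1.27), Tnfaip6 (0.44, both means below the negative control median), the sheddase Adam10 (0.19) and the proteoglycan Sdc1 (0.18). Adam10 releases Cx3cl1 and Cxcl16 from the membrane.

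The knockout kidneys differed among themselves. The mean deviation of the 14 risen members from their control means was 0.62, 0.61, 0.77, 0.39 and 0.34 in knockouts 1 to 5, against -0.04 to 0.03 in controls. These members were selected as higher in knockouts, so positive deviations and values above the controls follow from that choice. Only the order among the knockouts is described here. Knockout 3 was the highest of its group for 7 of these 14 members and knockout 5 for 0. Knockout 5 was the lowest for 7 and knockout 4 for 6. Knockouts 2 and 3 lay above all controls for all 14 members, knockout 1 for 13, and knockouts 4 and 5 for 12 each.

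Markers of other cell types moved with the members. Of 15 macrophage markers, 14 rose (93.3%, against 5.22% of all genes) and none fell, with Lyz2 (2.38) and Mpeg1 (1.47) the largest differences. Their mean level was 7.18 to 7.95 in knockouts and 6.55 to 6.81 in controls. The mean deviation of macrophage markers was 1.14, 1.11, 1.29, 0.73 and 0.52 in knockouts 1 to 5, against -0.11 to 0.15 in controls, so knockout 3 was highest and knockout 5 lowest here too. The same held for fibroblast, injured tubule, T and NK, and dendritic markers, so this order was not particular to macrophage markers. Monocyte markers rose in 3 of 4, and their mean level was 6.43 to 6.75 in knockouts and 6.08 to 6.20 in controls. Among the 3 was Ccr2, which is also counted above among the other chemokine system genes.

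Fibroblast markers rose in 8 of 9 (mean level 8.25 to 8.97 in knockouts, 7.24 to 7.54 in controls), and markers of injured tubule in 9 of 9 (8.16 to 8.69 in knockouts, 6.99 to 7.22 in controls). Urothelial markers rose in 5 of 7, with mean levels of 7.38 to 7.72 in knockouts and 6.38 to 7.27 in controls. Of 10 markers of healthy kidney tubule, 5 fell and 1 rose. Over all genes, 2.68% fell and 5.22% rose. The part of these cells in the members' differences was not tested. In whole-kidney RNA, more cells of a type and more RNA per cell cannot be told apart.

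A minority of T and NK markers rose, and few other lymphoid and granulocyte markers passed. T and NK cell markers rose in 4 of 14 (28.6%, against 5.22% of all genes), and 10 did not pass. The largest differences were those of the T helper and myeloid surface gene Cd4 (0.95) and the interleukin receptor gene Il7r (0.51). Klrd1 (0.42) and the T cell gene Cd3e (0.33) also rose. Cd3d, Cd3g, Cd8a and Cd8b1 differed by 0.00, 0.23, -0.05 and 0.19 and did not pass. Differences were positive for 10 of the 14 genes. Mean levels of the list were 5.17 to 5.40 in knockouts and 4.99 to 5.19 in controls. Both means of Cd2, Ncr1, Klrb1c, Gzma, Gzmb and the risen Klrd1 were below the negative control median, as was the control mean of Il7r. None of 10 neutrophil markers passed in limma, with 2 higher at an unadjusted p under 0.05. Over all 30768 genes, 3315 were higher and 3708 lower at an unadjusted limma p under 0.05. The mean level of neutrophil markers was 4.91 to 4.97 in knockouts and 4.84 to 5.00 in controls. Both means of S100a8, Retnlg, Mmp8, Ngp and Elane were below the negative control median. Of 8 eosinophil and mast cell markers none rose and Kit fell, against 2.68% of all genes. Both means of Siglecf, Prg2, Il5ra, Cpa3, Mcpt4 and Ms4a2 were below that median. B and plasma cell markers rose in 1 of 7 (14.3%), namely Sdc1, also counted above among genes that present or cleave chemokines. Dendritic cell markers rose in 1 of 8 (12.5%), namely Cd209a. Each is a single gene, against 5.22% of all genes. Endothelial markers passed in 0 of 9 in limma, with 1 lower at an unadjusted p under 0.05. Adipose (4 genes), adrenal (5) and erythrocyte (2) markers had no gene past the threshold in limma, with unadjusted p under 0.05 for 1 erythrocyte marker, which was lower.

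**Figure D5:**
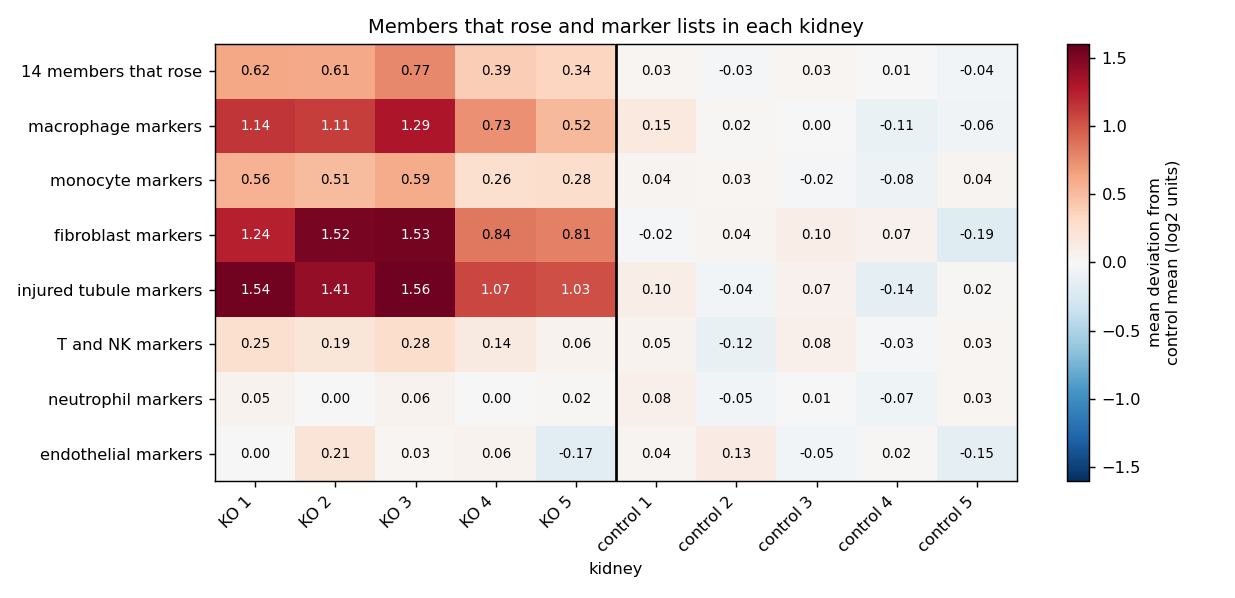
Mean deviation from the control mean (log2 units, colour and printed value) of the 14 members that rose and of 7 marker lists in each kidney, knockouts left of controls. Knockout 3 had the highest and knockout 5 the lowest value for both the members (0.77 and 0.34) and the macrophage markers (1.29 and 0.52). The same held for fibroblast (1.53 and 0.81), injured tubule (1.56 and 1.03) and T and NK markers (0.28 and 0.06). Neutrophil markers stayed between -0.07 and 0.08 in all 10 kidneys.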

How the data were processed

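The authors deposited log2 values, 1 per transcript cluster and array, made with RMA (background correction, normalisation between arrays and probe summary) on build mm10, per the submitters' processing notes. The log2 scale was read from the values, with array medians from 5.35 to 5.42, and no software version is given in the sources used here. RNA input was 500 ng per array, per the labels' protocols. Arrays carry no counts, and precision is limited by the number of arrays. Correlations between arrays were 0.992 to 0.998, and no pair of arrays was identical. The labels' protocols state 5 mice per genotype. They give no scan or hybridisation batch, so none could be tested.

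Of 72688 rows, 31241 had 1 symbol in the platform annotation, 1509 several and 39938 none. The rows with 1 symbol gave 30768 genes, and the mean was taken for the 364 genes with several rows. Symbols of 827 rows were updated through Entrez identifiers, and 637 rows were resolved by synonym. Groups were compared with limma 3.58.1 in R 4.3.3 (lmFit, eBayes with a mean-variance trend, all 10 arrays, no covariate, two-sided, Benjamini-Hochberg over all genes, threshold 0.05). Single members were also tested by exact permutation (two-sided, 5 against 5), where 0.00794 is the smallest p. The fit was tested on simulated data. A fold called at least uses values below an array's median of the 5222 negative control probe sets raised to that median. Table joins used pandas 2.3.3 in Python 3.11.15, and plots matplotlib 3.10.9.

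Values in every kidney are given for members past the threshold and, among the others, for the 4 with the highest mean, the 4 with the smallest unadjusted p and those whose groups did not overlap. From each list outside the members at most 4 risen genes, and from each marker list at most 2, are named by size of difference. Genes named only as below the negative control median, as the sole call of a list, or as further T and NK markers fall outside that rule. They were chosen after their values were seen. The members and lists were chosen with earlier results of these data known, and the pairs, the motifs and the lower-bound rule were set with the files at hand. The alternatives were quantile normalisation, median centring, a filter on dim genes, other variance models, the brightest row per gene, a replicate block and leaving out each kidney.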

Additional observations from a re-analysis of the deposited data

Results flagged for a closer look

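Each member was screened in each group for a single kidney far from the other 4, by the gap to its nearest neighbour over the whole range of the group (Dixon's 95% value, 0.71 for 5 samples). Of 86 groups, 6 held such a kidney, against about 1 in 20 by chance. Ccl4 was 4.65 in knockout 2, against 4.79 to 4.81 in the other knockouts. Ccr6, the receptor of Ccl20, was 4.39 in knockout 2, against 4.71 to 4.75 in the others. Cxcr5 was 4.54 in knockout 5, against 4.69 to 4.76 in the other knockouts. Ccl24 was 5.73 in control 1, against 5.51 to 5.53 in the other controls. Cxcl14 was 7.74 in control 1, against 7.94 to 8.02 in the other controls, and its call held without that kidney. Ccr9 was 4.54 in control 2, against 4.63 to 4.66 in the other controls. Of these members only Cxcl14 passed the test between groups, and Ccl4, Ccr6, Ccr9 and Cxcr5 had both means below the negative control median.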

How the results depend on the processing

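The 14 members that rose numbered 16 under quantile normalisation, 15 with the replicate block, 13 among genes above the negative control median and 14 under the other full-sample settings. The 1 member that fell, Ccl25, did not pass with median centring (0 members fell). No called difference changed sign. Leaving out 1 kidney at a time gave 10 to 14 members that rose, 9 to 11 ligands, 1 to 3 receptors (1 without knockout 2 and 1 without knockout 3) and 0 to 1 that fell. In the same fits, 1083 (without knockout 2) to 1942 (without knockout 5) of all genes were higher, against 1607 with all kidneys. Ccl5, Ccl6, Ccl9, Cx3cl1, Cxcl10, Cxcl12, Cxcl14, Cxcl16, Cxcl17 and Cxcr4 passed under every alternative run for them. Cxcl11 passed without knockout 2 (adjusted p 0.0429), and Ccl22 and Cxcl2 passed under quantile normalisation (adjusted p 0.0236 and 0.0325).

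Replicate numbers were not taken as pairs, since deviations of same-numbered kidneys correlated from -0.08 to 0.32, although 4 of 5 knockouts correlated best with their own number. With the replicate block Ccl28 also passed (adjusted p 0.0164), and no member's call was lost. Over all genes, 1828 were higher and 974 lower with the block, against 1607 and 825 without it. Whether the numbers mark a shared batch was not tested.

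Of the 58 chemokine system genes outside the members, 15 rose (against 5.22% of all genes), and 11 to 19 did so when 1 kidney was left out. The count that fell was 0, 1 under quantile normalisation, and 0 to 2 when 1 kidney was left out. Macrophage markers that rose numbered 13 to 14 of 15. Apart from both scalings and the dim filter on those 58 genes, these last alternatives were chosen after seeing the data. Over all genes, 825 were lower, against 1271 under quantile normalisation and 442 (without knockout 3) to 1470 (without knockout 5) when 1 kidney was left out.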
